A study of Rattus norvegicus with 32 samples.

Results

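The hippocampal transcripts of 40 enzymes that use iron, oxygen and 2-oxoglutarate were followed in rat pups with or without perinatal iron deficiency and with or without intranasal insulin. The genes were taken by symbol from the table of read counts, in which each symbol matched 1 of 32883 rows, and all 40 had enough counts to be tested. They were 3 TET DNA demethylases, 21 proteins with a JmjC domain, 4 hydroxylases of hypoxia-inducible factor (HIF), 6 collagen hydroxylases and 6 AlkB homologs. In edgeR none of the 40 passed an adjusted p of 0.05 between diets or treatments, where 0.123% to 3.82% of all genes passed, so a count of 0 is near the background. With DESeq2 or limma voom 0 to 4 of the 40 passed in a single comparison, where 0.181% to 5.54% of all genes passed. Taken over all these comparisons they were Tet1, Tet3, Kdm6b, Hif1an and Plod2. The share of all genes that passed in any of the comparisons is not given here.

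RNA sequencing was done on 1 hippocampus from each of 32 pups, labelled as wild type. In the iron-deficient (ID) groups the dams had received a purified diet with 3 to 6 ppm iron from gestational day 3 to postnatal day 7, and the other groups were labelled iron sufficient (IS). Pups of the insulin groups received insulin through the nose between postnatal days 8 and 21, and the others were labelled control. There were 8 IS control, 9 ID control, 7 IS insulin and 8 ID insulin libraries. Collection is given as postnatal day 7 or 21, without the day of each sample. Insulin ran to day 21, so the day of the control groups is the one that the labels do not settle. From the labels, age and insulin cannot be told apart there. Litters are not given, so the replicate spread behind each p-value is that of pups whose kinship is unknown. The leading number of each sample title was 69 in 5 and 70 in 4 ID control libraries, 71 in IS control, and 72 and 73 in the IS and ID pups given insulin. Group and title number therefore cannot be told apart, except inside ID control.

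Iron(II) sits in the active site of every catalytic member of this enzyme family. There it binds oxygen and 2-oxoglutarate, the latter an intermediate of the citric acid cycle, and the enzyme hydroxylates its substrate. Where a methyl group on DNA, RNA or a histone is hydroxylated, it can be lost or processed further, so the same chemistry serves demethylation. Where a prolyl or asparaginyl residue of HIF is hydroxylated, HIF is marked for degradation or loses a coactivator, which is how cells read oxygen. Where prolyl and lysyl residues of procollagen are hydroxylated, the triple helix is stabilised and can be cross-linked. Iron supply can limit the activity of these enzymes without any change in their transcripts, and only transcripts were measured here.

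The promoters of 4 hydroxylase genes are shown because the genes are textbook HIF targets in mammalian cells: Egln1, which encodes the main HIF prolyl hydroxylase, P4ha1 and P4ha2, catalytic subunits of collagen prolyl hydroxylase, and Plod2, a collagen lysyl hydroxylase. Each is the 300 bases from 250 before to 50 after the RefSeq start in the GRCr8 assembly, written 5′ to 3′ on the gene's strand, and capitals mark ACGTG or GCGTG, the core of the hypoxia response element, on either strand (CACGT or CACGC when read from the other strand). Egln1 lies at chr19:69804632-69804931 on the minus strand, P4ha1 at chr20:27844796-27845095, P4ha2 at chr10:38743644-38743943 and Plod2 at chr8:101964068-101964367, these 3 on the plus strand.
Egln1: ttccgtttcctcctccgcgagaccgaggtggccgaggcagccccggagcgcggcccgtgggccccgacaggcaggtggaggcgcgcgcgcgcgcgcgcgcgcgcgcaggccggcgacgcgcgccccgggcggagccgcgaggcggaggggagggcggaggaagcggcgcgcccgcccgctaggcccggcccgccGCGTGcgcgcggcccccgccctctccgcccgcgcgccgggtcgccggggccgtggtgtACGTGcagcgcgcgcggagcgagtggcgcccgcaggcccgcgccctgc
P4ha1: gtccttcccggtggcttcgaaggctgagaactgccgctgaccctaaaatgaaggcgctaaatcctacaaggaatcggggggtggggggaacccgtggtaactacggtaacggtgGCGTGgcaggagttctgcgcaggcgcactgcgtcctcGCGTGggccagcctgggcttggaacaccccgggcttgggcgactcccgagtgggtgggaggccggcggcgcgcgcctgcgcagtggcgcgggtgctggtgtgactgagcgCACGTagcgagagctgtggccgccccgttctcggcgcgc
P4ha2: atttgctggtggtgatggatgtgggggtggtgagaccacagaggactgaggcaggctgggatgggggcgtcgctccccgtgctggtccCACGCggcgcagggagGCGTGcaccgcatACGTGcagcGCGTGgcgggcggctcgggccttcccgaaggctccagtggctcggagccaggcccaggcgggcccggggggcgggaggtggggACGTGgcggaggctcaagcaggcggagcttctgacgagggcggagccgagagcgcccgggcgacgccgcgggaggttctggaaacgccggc
Plod2: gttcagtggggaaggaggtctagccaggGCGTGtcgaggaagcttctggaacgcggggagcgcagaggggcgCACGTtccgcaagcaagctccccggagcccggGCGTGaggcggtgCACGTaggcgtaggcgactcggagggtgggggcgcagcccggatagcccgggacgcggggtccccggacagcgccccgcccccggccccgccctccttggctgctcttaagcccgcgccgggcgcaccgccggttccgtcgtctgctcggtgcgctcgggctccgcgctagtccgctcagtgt

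The windows hold 2 core matches in Egln1, 3 in P4ha1, 5 in P4ha2 and 4 in Plod2. Of 2 other hypoxia-inducible members not shown, Egln3 has 0 matches and Kdm3a has 1 and 0 in its 2 windows. RefSeq promoters were found by symbol for 38 of the 40 genes, with 47 windows, because Tet1, Tet3, Kdm3a and Kdm7a have several starts. A core occurred in 25 of the 47 windows (53.2%) and in 41.6% of all 33469 promoter windows of the same length. Member windows also held more CpG dinucleotides, with a median of 21 against 7, and the core itself contains a CpG. By role, 5 of 6 collagen hydroxylase genes, 3 of 3 TET genes, 11 of 19 JmjC genes, 3 of 6 AlkB homologs and 1 of 4 HIF hydroxylase genes had a window with a core. Here a gene counts if any of its windows had a core, so these counts cannot be set against the 41.6% of windows. These matches are letters in a window and not measured binding sites.

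Library totals ranged from 19619345 to 28062630 counts, and mitochondrially encoded transcripts took 6.84% to 11.99% of them. Levels are given as CPM, counts relative to the TMM-scaled library total. They are not corrected for transcript length and are compared only within a gene. Tfrc, the transferrin receptor gene, had medians of 118 CPM in IS control, 169 CPM in ID control, 120 CPM in IS insulin and 205 CPM in ID insulin. Its 9 ID control libraries (128 to 194 CPM) all lay above the 8 IS control libraries (106 to 127 CPM), with a log2 fold change 0.53, SE 0.069, adjusted p = 0.000116 in edgeR. The 14 hippocampal neuron markers summed to 2396 to 3744 CPM and none was at 0 in a whole group. Their median sums were 3353 CPM in IS control, 3356 CPM in ID control, 3295 CPM in IS insulin and 3034 CPM in ID insulin. In ID insulin 2 of 11 tested, Nrgn and Wfs1, fell against ID control in edgeR (log2 fold change -0.32 and -0.38) and 0 rose. Of all genes 1.86% fell there. Median sums of the 19 myelin and oligodendrocyte markers were 22100 CPM in IS control and 19960 CPM in ID control. With insulin they were 22500 CPM in IS pups and 20840 CPM in ID pups. Their bearing on the day of collection was not tested. The 12 choroid plexus markers varied most. Their sum ran from 143 to 3999 CPM in IS control and from 1535 to 6575 CPM in ID control. With insulin it ran from 177 to 5254 CPM in IS pups and from 479 to 7059 CPM in ID pups. Of this list Otx2 was at 0 in all ID control and all IS insulin libraries. Thalamus and habenula markers reached 740 CPM in ID insulin and at most 293 CPM in the other groups, and their part in the group differences was not tested except through covariates.

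The lowest count of any member in any library was 15, for P4ha3, and Fto reached 4383. Within groups the standard deviation of log2 CPM had a median of 0.12 over the members, against 0.17 over the 15439 genes tested. It was lowest for the histone demethylase gene Kdm4b (0.066) and highest for P4ha3 (0.61).

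**Figure D1:**
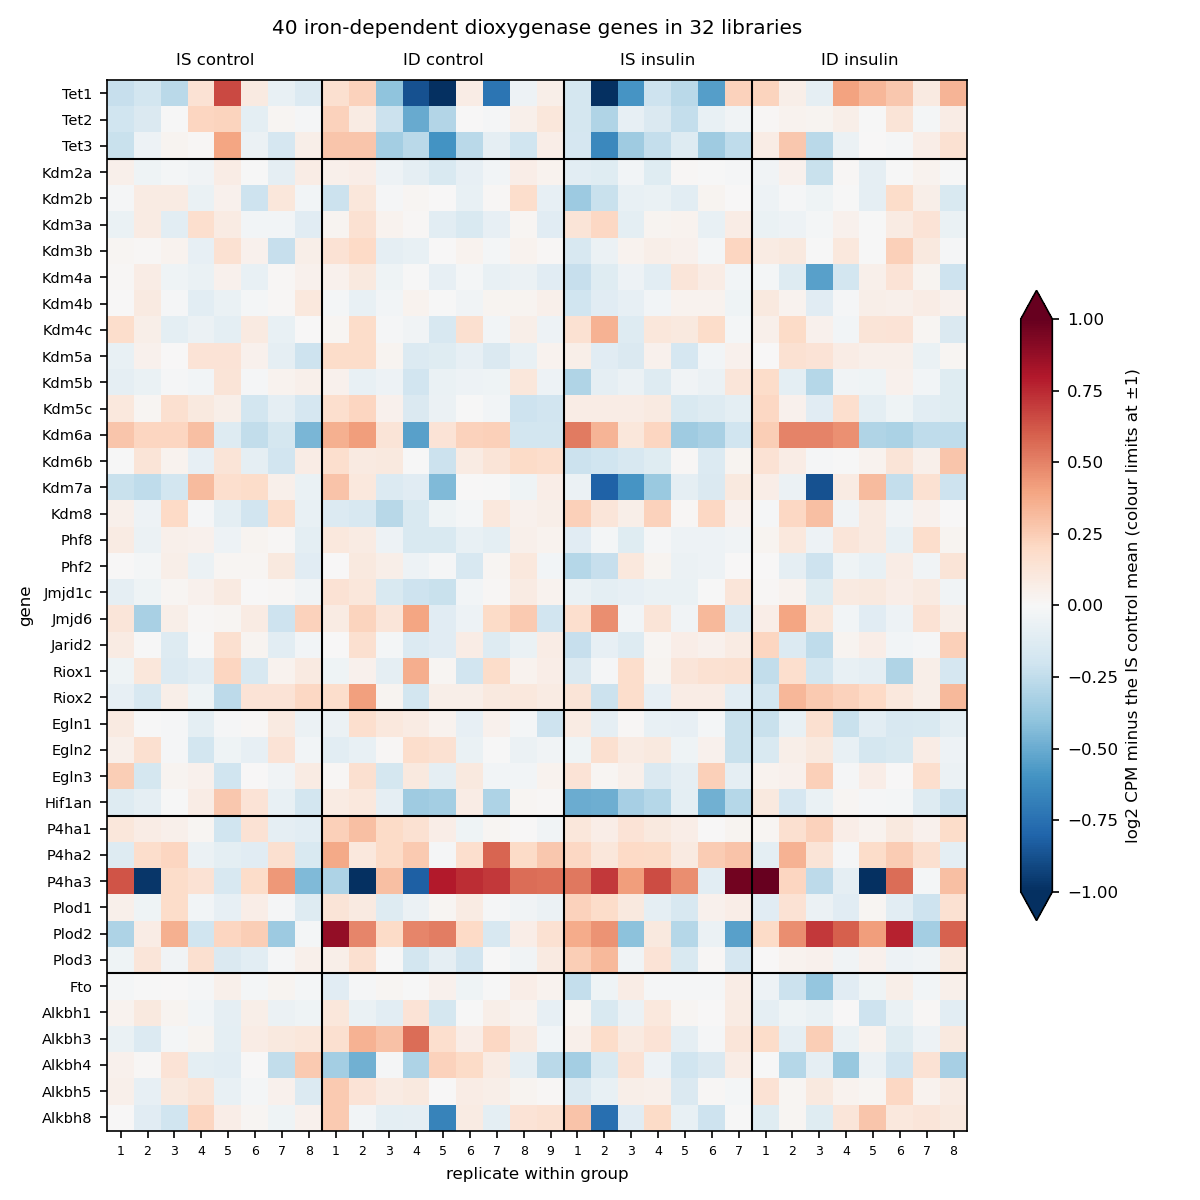
Level of the 40 genes (rows, ordered by role) in the 32 libraries (columns, by group and replicate), as log2 CPM minus the IS control mean; colours saturate at ±1. Most rows stay pale in all 4 groups, and the variable rows (Tet1, Kdm6a, Kdm7a, P4ha3, Plod2) vary between pups of the same group.

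The difference between diets in pups that got no insulin was read from ID control against IS control. Of the 40 members 0 were called in edgeR, 0 in DESeq2 and 0 in limma voom, where 0.291%, 0.738% and 1.57% of all genes were called. At an unadjusted p under 0.05 there were 3 members, all higher in ID control, where 11.9% of all genes passed and 6.89% passed as higher. The members' median log2 fold change was -0.0046, against 0.0051 over all genes, and their median absolute log2 fold change was 0.027 against 0.072. For 34 members the 95% interval lay wholly inside a 1.25-fold difference, which held for 62.3% of all genes, and for 38 inside 1.5-fold, which held for 82% of all genes. P4ha3 and Plod2 were those whose intervals reached past 1.5-fold.

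In pups given insulin, ID was compared with IS in the same way. In edgeR 0 of 40 members were called, against 2.45% of all genes, and the lowest adjusted p of a member was 0.0512. Unadjusted p was under 0.05 for 10 members, where 20.1% of all genes passed. Of these 9 were higher in ID insulin (background 10.9%), namely Tet1, Tet2, Tet3, Kdm4b, Kdm6b, Phf8, Hif1an, Plod2 and Alkbh5, and 1 was lower (background 9.18%), the ribosomal oxygenase gene Riox1. DESeq2 called 4 members (Tet1, Tet3, Kdm6b and Hif1an; background 4.68%) and limma voom called 3 (Tet1, Tet3 and Plod2; background 3.67%). Intervals lay inside 1.25-fold for 29 members (56.2% of all genes) and inside 1.5-fold for 37 (78.5% of all genes), the exceptions being Tet1, P4ha3 and Plod2. Single pups decided calls here, with 4 members called in edgeR without ID insulin replicate 3 (Tet1, Tet3, Kdm6b and Hif1an) and 1 without replicates 3 and 5 (Kdm6b). The shares of all genes called without these libraries are not given here, so these counts cannot be set against a background. Replicate 3 stood apart, with 11.99% mitochondrial counts against 6.84% to 9.61% in the other 7 ID insulin pups and the lowest Kdm4a (52.1 CPM) and Fto (122 CPM) of the 32 libraries.

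Averaged over both treatments, diet gave 0 called members in edgeR (background 1.63%), 2 in DESeq2 (2.71%) and 2 in limma voom (3.36%), in both tools Kdm6b and Plod2. The 4 members at an unadjusted p under 0.05 were Kdm6b, Riox2, Plod2 and Alkbh5, all higher in ID, where 15% of all genes passed and 8.82% passed as higher. The median member differed by 0.023 on the log2 scale, against 0.0021 over all genes. Leaving out 1 library gave 0 or 1 called member, Kdm6b or Plod2, and the share of all genes then called is not given here. Intervals of 37 members lay inside 1.25-fold (72.7% of all genes) and of 39 inside 1.5-fold (88%).

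Insulin was examined within each diet. Between ID insulin and ID control edgeR called 0 members (3.82% of all genes), DESeq2 0 (5.3%) and limma voom 1, Tet1 (5.05%). Here 5 members had an unadjusted p under 0.05 (19.5% of all genes): Tet1 and Kdm8 were higher in ID insulin, and Riox1, Egln1 and Alkbh3 lower. Between IS insulin and IS control edgeR called 0 (0.123%), DESeq2 1, Hif1an (1.33%), and limma voom 0 (0.181%). The 5 members with an unadjusted p under 0.05 (16.3%) were Tet1, Tet2, Tet3 and Hif1an, lower in IS insulin (background 7.59%), and P4ha2, higher. Intervals inside 1.5-fold were found for 38 members in each comparison, with Tet1 and P4ha3 outside, against 80.7% and 80.6% of all genes.

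ID insulin differed from IS control in diet and treatment together. In edgeR, DESeq2 and limma voom 0 members were called, where 3.35%, 5.54% and 3.82% of all genes were, and Riox2 and Plod2 were the 2 members at an unadjusted p under 0.05 (20.3%). For the interaction of diet and insulin, which asks whether insulin's difference depended on diet, edgeR called 0 (0.939%), DESeq2 2 (Tet1 and Hif1an; 2.74%) and limma voom 2 (Tet1 and Tet3; 3.18%). Unadjusted p was under 0.05 for 8 members (17.1%): positive for Tet1, Tet2, Tet3, Phf8 and Hif1an, and negative for Riox1, P4ha2 and Alkbh3. The comparisons share groups, so their member lists are not separate evidence.

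**Figure D2:**
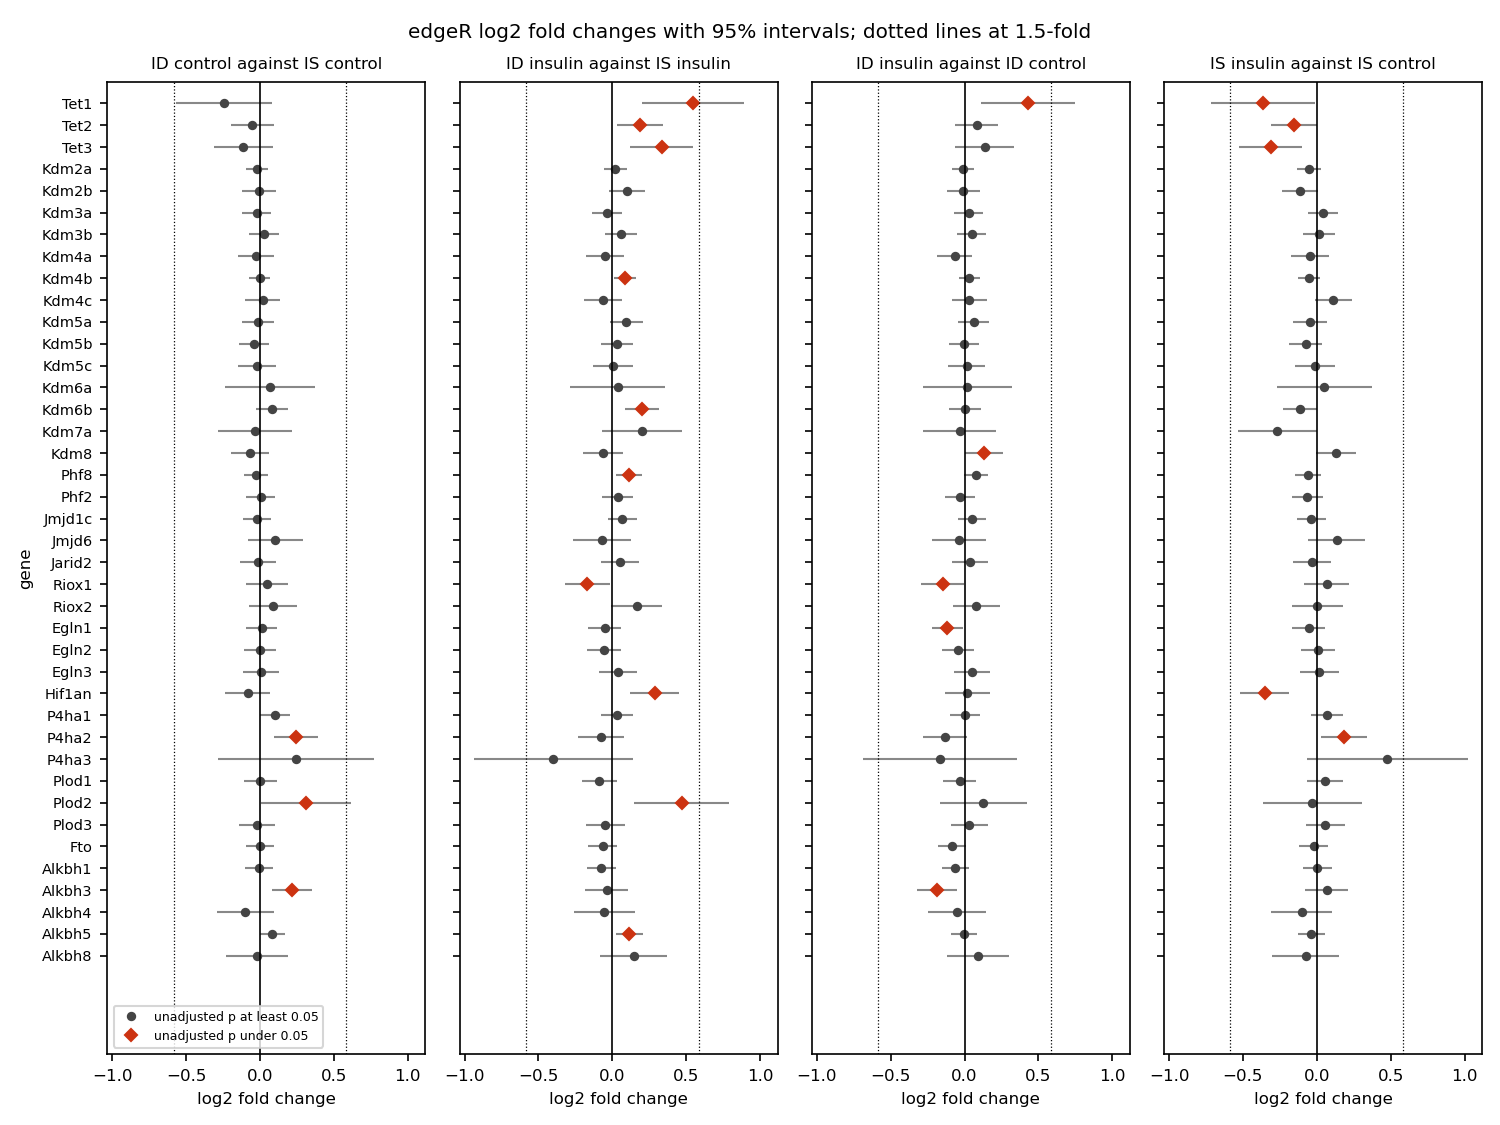
Log2 fold change (x axis) of each of the 40 genes (y axis) in 4 comparisons, as edgeR estimates with 95% intervals; red diamonds mark an unadjusted p under 0.05 and dotted lines a 1.5-fold difference. Most JmjC rows sit close to 0, the TET rows and Hif1an lie right of 0 between diets under insulin and left of 0 for insulin in IS pups, and P4ha3 has the widest intervals.

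The TET enzymes oxidise 5-methylcytosine in DNA and so start its removal, and Tet1 and Tet3 have been studied in hippocampal memory in rodents. Tet1 had lowest, median and highest levels of 10.1, 11.3 and 19.3 CPM in IS control, 6.09, 11.7 and 14.3 CPM in ID control, 5.88, 10.1 and 14.3 CPM in IS insulin and 11.5, 14.4 and 16.1 CPM in ID insulin. The ID insulin pups were the most even and sat high, while in ID control 4 of 9 pups were below every IS control pup. All 4 ranges overlapped. Between ID insulin and IS insulin Tet1 gave a log2 fold change 0.55, SE 0.17, 95% interval 0.20 to 0.89, adjusted p = 0.0687. Between ID insulin and ID control it gave a log2 fold change 0.43, SE 0.16, 95% interval 0.11 to 0.75, adjusted p = 0.119. Without insulin the sign was opposite, with ID control below IS control (log2 fold change -0.24, SE 0.16, 95% interval -0.57 to 0.080, adjusted p = 0.57), and the interaction had a log2 fold change 0.79, SE 0.23, 95% interval 0.32 to 1.27, adjusted p = 0.0808.

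Tet3, the TET enzyme active in the zygote and in neurons, ranged over 29.9, 34.2 and 45.8 CPM in IS control, 22.98, 30.2 and 42.2 CPM in ID control, 22.2, 29.1 and 31.8 CPM in IS insulin and 28.8, 35.6 and 42 CPM in ID insulin. The IS insulin pups were the low group, yet the highest of them was above the lowest IS control pup. IS insulin against IS control gave a log2 fold change -0.31, SE 0.11, 95% interval -0.53 to -0.10, adjusted p = 0.147, and the interaction a log2 fold change 0.45, SE 0.14, 95% interval 0.16 to 0.74, adjusted p = 0.102. Tet2, which lacks the DNA-binding CXXC domain of the other two, had 26.3, 29.3 and 31.5 CPM in IS insulin and 31.9, 33.1 and 35.5 CPM in ID insulin. It was the 1 member of 40 whose groups did not overlap there, which held for 0.44% of all genes (log2 fold change 0.19, SE 0.077, 95% interval 0.033 to 0.35, adjusted p = 0.156). In IS control Tet2 had 28.2, 32.2 and 37.8 CPM and in ID control 22.9, 32.5 and 38.1 CPM, and the ID control range holds both insulin groups.

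Hif1an encodes the asparaginyl hydroxylase that keeps HIF from its coactivator, also called factor inhibiting HIF. Its levels were 11.8, 13.1 and 16.2 CPM in IS control, 10.5, 13.5 and 14.5 CPM in ID control, 9.52, 10.7 and 12.6 CPM in IS insulin and 11.6, 13.01 and 14.3 CPM in ID insulin. IS insulin was the low group, with 6 of 7 pups below every IS control pup. The mitochondrial share of counts was 8.60% to 11.37% in IS insulin and 7.63% to 9.26% in IS control, and its part in the low Tet, Hif1an and Kdm6b levels of IS insulin was not tested. IS insulin against IS control gave a log2 fold change -0.35, SE 0.082, 95% interval -0.52 to -0.19, adjusted p = 0.0663, with an unadjusted p of 0.000136. ID insulin against IS insulin gave a log2 fold change 0.29, SE 0.082, 95% interval 0.12 to 0.45, adjusted p = 0.0522, and the interaction a log2 fold change 0.37, SE 0.11, 95% interval 0.14 to 0.60, adjusted p = 0.0847. Between the control groups the difference was -0.084 (95% interval -0.24 to 0.069).

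The prolyl hydroxylases that mark HIF for degradation, Egln1, Egln2 and Egln3, were called in 0 of the 8 comparisons. Egln1 had 24.1, 25.6 and 27.4 CPM in IS control, 22.4, 26.3 and 28.9 CPM in ID control, 22.1, 24.5 and 27.3 CPM in IS insulin and 22.03, 23.6 and 28.8 CPM in ID insulin. In ID insulin 7 of 8 pups lay between 22.03 and 24.5 CPM, and the exception was the highest value. ID insulin against ID control gave a log2 fold change -0.12, SE 0.052, 95% interval -0.22 to -0.011, adjusted p = 0.206. Egln2 ranged over 67.4 to 88.8 CPM and Egln3, which is itself strongly hypoxia-inducible in many cells, over 16.6 to 22.6 CPM in all libraries. Their differences between ID control and IS control were -0.0023 (95% interval -0.11 to 0.11) and 0.0054 (95% interval -0.12 to 0.13) on the log2 scale.

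**Figure D3:**
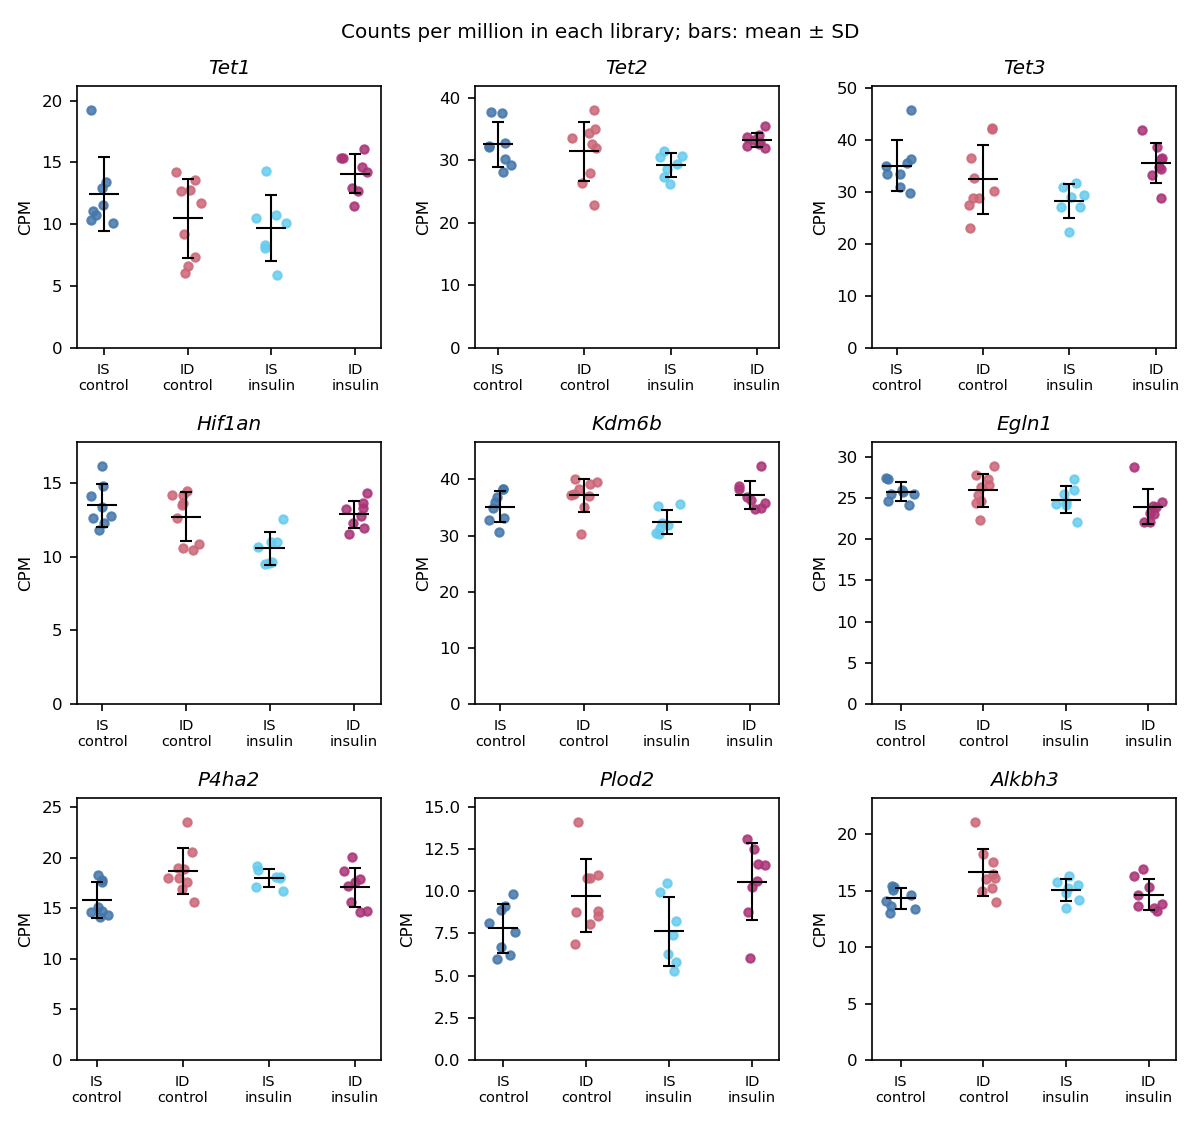
CPM (y axis, from 0) of 9 genes in each library by group (x axis), with the mean ± SD as a black bar. Tet1, Tet2 and Tet3 are lower and Hif1an lowest in IS insulin, Egln1 is nearly level, and Plod2 spreads widely inside every group; groups overlap in all panels except Tet2 in the insulin groups.

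Genes of the HIF pathway and HIF targets give the context of these hydroxylases. Their list was chosen with earlier results of these data known, so shares of all genes beside its counts do not test it. Of 21 tested genes 0 were called between ID control and IS control (median log2 fold change 0.019, against 0.0051 over all genes). Hif1a itself had 95.4 ± 4.25 CPM in IS control and 99.1 ± 5.73 CPM in ID control (SD, n = 8 and 9; log2 fold change 0.055, SE 0.036, adjusted p = 0.575). In ID insulin 3 of the 21 fell against ID control, where 1.86% of all genes fell, and 0 rose. These were the stress-responsive gene Ndrg1, which had 79.98 ± 14.5 CPM in ID control and 61.97 ± 3.54 CPM in ID insulin (SD, n = 9 and 8; log2 fold change -0.37, SE 0.081, adjusted p = 0.0102), Epas1, which encodes another HIF alpha subunit (log2 fold change -0.20, SE 0.056, adjusted p = 0.0342), and Mxi1, a Myc antagonist (log2 fold change -0.16, SE 0.043, adjusted p = 0.0292). Mxi1 also fell in ID insulin against IS insulin (log2 fold change -0.24, SE 0.045, adjusted p = 0.00425) and in the interaction (log2 fold change -0.31, SE 0.062, adjusted p = 0.0181). It was the 1 of 21 called in each, where 2.45% and 0.939% of all genes were called. Against IS control, ID insulin had lower Ndrg1 (log2 fold change -0.43, SE 0.083, adjusted p = 0.00414) and higher Vegfa, the vascular growth factor gene (log2 fold change 0.29, SE 0.062, adjusted p = 0.00899). The 3 HIF genes called in ID insulin against ID control thus shared a direction, and the other 18 of the 21 were not called. Against IS control Ndrg1 fell and Vegfa rose, so the direction was mixed there. Each was the 1 of 21 called in its direction, where 3.35% of all genes were called.

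The JmjC histone demethylases were the largest class. Kdm6b, which removes the repressive methyl mark laid down by Polycomb and is induced by many stimuli, had 30.7, 35.4 and 38.4 CPM in IS control, 30.2, 37.5 and 40.1 CPM in ID control, 30.3, 31.9 and 35.7 CPM in IS insulin and 34.7, 36.6 and 42.4 CPM in ID insulin. IS insulin was the low group, and its ranges overlapped those of the others. ID insulin against IS insulin gave a log2 fold change 0.20, SE 0.057, 95% interval 0.084 to 0.32, adjusted p = 0.0512, and diet averaged over treatments a log2 fold change 0.14, SE 0.039, 95% interval 0.062 to 0.22, adjusted p = 0.0556. The adjusted p of the averaged difference was 0.0153 to 0.235 over the other settings tried, with the same sign in each. Without ID insulin replicates 3 and 5 it passed (0.15, adjusted p = 0.0478).

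Other JmjC enzymes gave small differences. Phf8, a histone demethylase gene mutated in X-linked intellectual disability, gave 0.11 between ID insulin and IS insulin (unadjusted p = 0.0148), and Kdm4b, which acts on heterochromatic marks, gave 0.084 (unadjusted p = 0.0298). Kdm3a, a textbook HIF target, gave -0.023 (95% interval -0.12 to 0.073) between ID control and IS control. The CpG island-binding demethylases gave -0.020 for Kdm2a and -0.0059 for Kdm2b there. Jmjd1c gave -0.021, Kdm3b 0.026, Kdm4a -0.028, Kdm4c 0.017, Kdm5a -0.014, Kdm5b -0.040, Kdm5c -0.022, Kdm7a -0.033 and Phf2 0.0044. Jarid2, a Polycomb subunit whose JmjC domain has no demethylase activity, gave -0.015. Each interval between ID control and IS control in this group included 0, unlike those of Phf8 (0.023 to 0.20) and Kdm4b (0.0087 to 0.16) between ID insulin and IS insulin.

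The JmjC hydroxylases act on proteins other than histones. Riox1 and Riox2 hydroxylate ribosomal proteins. Riox2 had 5.85, 7.05 and 8.07 CPM in IS control and 6.15, 8.13 and 8.80 CPM in ID insulin, overlapping groups with a log2 fold change 0.17, SE 0.081, 95% interval 0.0034 to 0.33, adjusted p = 0.236. Riox1 gave -0.17 between ID insulin and IS insulin and -0.15 between ID insulin and ID control (unadjusted p = 0.0305 and 0.0454). Jmjd6, which hydroxylates splicing factors, gave 0.10 between ID control and IS control (95% interval -0.080 to 0.29), and Kdm8, whose product also hydroxylates proteins, gave -0.066 (95% interval -0.19 to 0.062).

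Kdm6a levels split with those of Kdm5d. Kdm5d, a Y-linked JmjC demethylase gene outside the member list, was at 37.6 to 51.3 CPM in 14 libraries and at most 0.0962 CPM in the other 18. Kdm6a, on the X chromosome, was at 21.8, 26.6 and 29.0 CPM (lowest, median and highest) in the 14 and at 34.4, 38.0 and 45.4 CPM in the 18. These ranges did not overlap, and Kdm6a was the 1 of 40 members of which that was true, as it was of 0.0712% of all genes tested. Kdm5c, also on the X, was at 74.7 to 89.7 CPM and 79.5 to 99.8 CPM, overlapping ranges. Sex is not given in the labels, and the split was made from the data, so it is described and not tested. How reads shared with the Y-linked relatives of Kdm6a and Kdm5c were counted is not given in the sources used here. High Kdm5d occurred in 4 of 8 IS control and 3 of 9 ID control libraries, and with insulin in 4 of 8 ID and 3 of 7 IS libraries. With Kdm5d as a covariate the SE of the Kdm6a difference between ID control and IS control was 0.061 instead of 0.15, and the difference was -0.018 instead of 0.068.

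**Figure D4:**
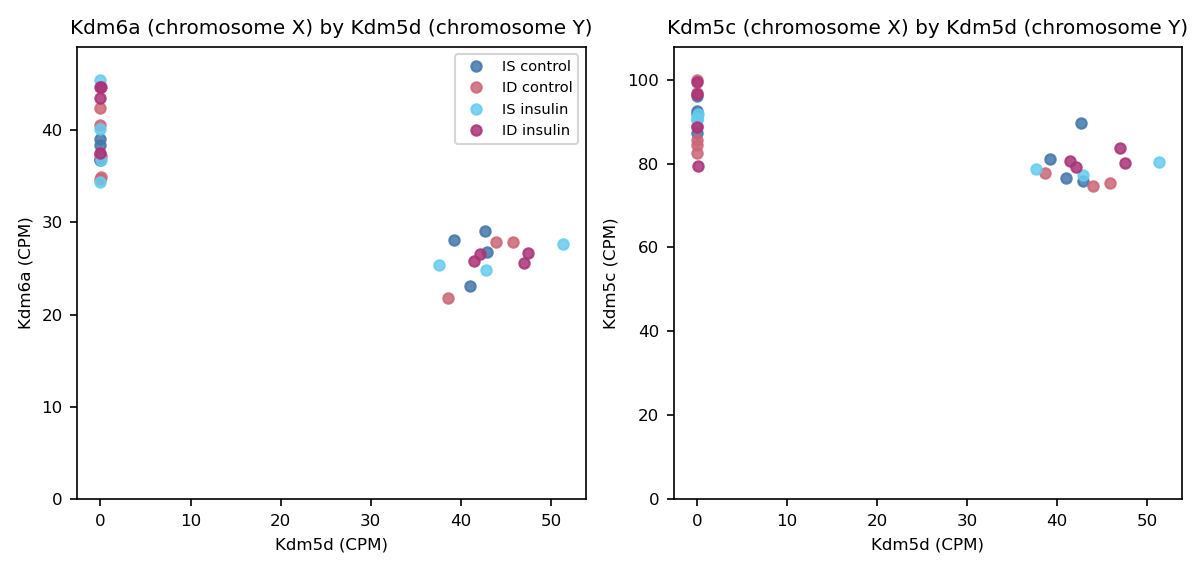
Kdm6a (left) and Kdm5c (right) against Kdm5d, each in CPM, with 1 point per library coloured by group. Kdm6a falls into 2 separate clouds, 21.8 to 29.0 CPM where Kdm5d is present and 34.4 to 45.4 CPM where it is near 0, with every group in both, and the Kdm5c clouds overlap.

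The collagen hydroxylases held 2 of the 3 smallest p-values among members in the diet comparison without insulin. P4ha2 had 14.1, 14.9 and 18.3 CPM in IS control, 15.6, 18 and 23.6 CPM in ID control, 16.7, 18.1 and 19.2 CPM in IS insulin and 14.7, 17.4 and 20.03 CPM in ID insulin. IS control was the low group, with overlap. ID control against IS control gave a log2 fold change 0.24, SE 0.073, 95% interval 0.093 to 0.39, adjusted p = 0.146. The difference was 0.18 with the ID control libraries of title number 69 alone and 0.30 with those of 70 alone. IS insulin against IS control gave a log2 fold change 0.18, SE 0.078, 95% interval 0.027 to 0.34, adjusted p = 0.228. P4ha1, the more widely expressed catalytic subunit, had 41.6, 48.8 and 52.9 CPM in IS control and 48.3, 50.5 and 55.9 CPM in ID insulin, overlapping groups with a log2 fold change 0.10, SE 0.051, 95% interval -0.0012 to 0.21, adjusted p = 0.253.

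Plod2 hydroxylates the telopeptide lysines used for collagen cross-links. It had 5.96, 7.84 and 9.83 CPM in IS control, 6.86, 8.82 and 14.1 CPM in ID control, 5.26, 7.39 and 10.5 CPM in IS insulin and 6.07, 11.1 and 13.1 CPM in ID insulin. Both ID groups had higher medians and every pair of groups overlapped. Averaged over treatments, diet gave a log2 fold change 0.39, SE 0.11, 95% interval 0.17 to 0.61, adjusted p = 0.0589. ID insulin against IS insulin gave a log2 fold change 0.47, SE 0.16, 95% interval 0.15 to 0.79, adjusted p = 0.0931, ID insulin against IS control a log2 fold change 0.44, SE 0.15, 95% interval 0.13 to 0.75, adjusted p = 0.0977, and ID control against IS control a log2 fold change 0.31, SE 0.15, 95% interval 0.0057 to 0.62, adjusted p = 0.41.

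Plod2 also followed choroid plexus transcripts from pup to pup. After removal of group means, its log2 CPM correlated with the mean of the choroid plexus list over the 32 libraries (Pearson's r = 0.752, Spearman's rho = 0.777, permutation p = 1e-05 for each, the smallest that 100000 permutations can give, adjusted p = 0.00214 and 0.00429 over 429 relations). The r was 0.767 within IS control, 0.507 within ID control, 0.938 within IS insulin and 0.930 within ID insulin, and 0.729 without the 2 libraries farthest from the median. Pieces of choroid plexus lie beside the hippocampus, and the list's summed level had medians of 530 CPM (IS) and 2954 CPM (ID) without insulin, and of 1339 CPM (IS) and 3990 CPM (ID) with it. Of the 11 tested genes of the list, 0 were called in edgeR in any of the 8 comparisons (0.123% to 3.82% of all genes). With tissue list means (blood, choroid plexus, thalamus and meninges) as covariates, the Plod2 difference was -0.013 between ID control and IS control and 0.15 averaged over treatments (adjusted p = 0.989 and 0.684). In whole tissue, fewer or more cells of a type cannot be told apart from less or more RNA per cell. Title number also moved with Plod2. ID control against IS control was 0.50 with title number 69 alone and 0.040 with 70 alone.

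Inside ID control the title numbers 70 and 69 gave a view of spread without a labelled diet difference. Of 40 members 0 were called in edgeR, DESeq2 and limma voom (0.22%, 1.1% and 0.353% of the genes tested), and 5 had an unadjusted p under 0.05 (8.92%). P4ha1 was at 50.1, 53.1, 54.5, 56.3 and 58.9 CPM in the 5 libraries numbered 69 and at 46.2, 46.5, 47.95 and 48.3 CPM in the 4 numbered 70, with no overlap (log2 fold change -0.21, SE 0.055, 95% interval -0.33 to -0.092, adjusted p = 0.218). Kdm8 was at 11.4, 12.4, 12.4, 12.6 and 13.4 CPM and at 13.6, 14.3, 14.4 and 14.9 CPM, also without overlap (log2 fold change 0.20, SE 0.075, 95% interval 0.038 to 0.37, adjusted p = 0.44), and the mitochondrial share did not overlap either. Non-overlap held for these 2 members and for 3.56% of all genes. Plod2 was at 8.79, 10.8, 10.8, 10.96 and 14.1 CPM and at 6.86, 8.04, 8.53 and 8.82 CPM, nearly separate (log2 fold change -0.46, SE 0.14, 95% interval -0.76 to -0.16, adjusted p = 0.291). P4ha3 (0.72) and Alkbh3 (-0.23) were the other 2.

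The other collagen hydroxylases gave wide or near-0 differences. P4ha3, the least expressed member, spanned 0.554 to 3.87 CPM and gave 0.25 between ID control and IS control (95% interval -0.28 to 0.77). Plod1 spanned 27.7 to 37.3 CPM and Plod3 22.4 to 32.1 CPM, with differences of 0.0014 and -0.022 there.

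The substrates of these hydroxylases were counted as well. Their list and the cell type lists beside it were chosen with earlier results of these data known. The shares of all genes given beside their counts therefore do not test the lists. Of 13 tested genes for collagens and the collagen-like complement C1q chains, 3 rose with iron deficiency averaged over treatments, where 0.842% of all genes rose, and 0 fell (median log2 fold change 0.18, against 0.0021 over all genes). The fibrillar collagen gene Col3a1 had 78.9 ± 25.4 CPM in IS control, 133 ± 47.6 CPM in ID control, 62.4 ± 13.2 CPM in IS insulin and 85.6 ± 21.3 CPM in ID insulin (SD; log2 fold change 0.60, SE 0.14, adjusted p = 0.0154). The basement membrane genes Col4a1 (log2 fold change 0.34, SE 0.086, adjusted p = 0.0309) and Col4a2 (log2 fold change 0.28, SE 0.070, adjusted p = 0.0329) rose too. In ID insulin 4 of 13 fell against ID control, where 1.86% of all genes fell: Col1a1 (log2 fold change -0.61, SE 0.15, adjusted p = 0.0205), Col18a1 (log2 fold change -0.49, SE 0.12, adjusted p = 0.0212), Col6a1 (log2 fold change -0.36, SE 0.10, adjusted p = 0.0359) and Col3a1 (log2 fold change -0.63, SE 0.18, adjusted p = 0.0445). Markers of meninges and fibroblasts moved with them. Of 10 tested, 6 fell in ID insulin against ID control (median -0.56), but Col1a1 and Col3a1 are on both lists. Without the shared collagen genes 4 of 8 fell there and 1 of 8 rose with diet. The 9 such markers in the table summed to 277 to 582 CPM (IS) and 445 to 736 CPM (ID) without insulin, and to 264 to 534 CPM (IS) and 261 to 525.9 CPM (ID) with it. None was at 0 in a whole group. Of the 15 endothelial and pericyte markers 3 fell in ID insulin against ID control and 3 rose with diet. Their sums were 474 to 686 CPM (IS) and 670 to 768 CPM (ID) without insulin and 575 to 693 CPM (IS) and 481 to 716 CPM (ID) with it, and the part of either cell type in the collagen differences was not tested.

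Most AlkB homologs act on methylated or alkylated nucleic acids. Alkbh3, which repairs alkylated single-stranded DNA and RNA, had 13.02, 14.3 and 15.4 CPM in IS control, 14, 16.1 and 21.1 CPM in ID control, 13.4, 15.2 and 16.3 CPM in IS insulin and 13.2, 14.2 and 16.9 CPM in ID insulin. ID control was the high group, with overlap. It gave a log2 fold change 0.21, SE 0.067, 95% interval 0.078 to 0.35, adjusted p = 0.162 against IS control, and ID insulin against ID control a log2 fold change -0.18, SE 0.066, 95% interval -0.32 to -0.049, adjusted p = 0.115. With title number 69 alone these were 0.31 and -0.29, and with 70 alone 0.079 and -0.056, smaller in size.

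Fto and Alkbh5 erase N6-methyladenosine from RNA. Alkbh5 had 41.1, 45.7 and 49.5 CPM in IS control, 45.5, 47.6 and 54.3 CPM in ID control, 41.02, 44.6 and 47.1 CPM in IS insulin and 45.8, 47.2 and 52.2 CPM in ID insulin, so both ID groups had a slightly higher median. Averaged over treatments diet gave a log2 fold change 0.10, SE 0.031, 95% interval 0.036 to 0.16, adjusted p = 0.0979. Fto spanned 122 to 168 CPM, and its difference was -0.00040 between ID control and IS control (95% interval -0.092 to 0.091) and -0.085 between ID insulin and ID control (95% interval -0.18 to 0.0073). Alkbh1, a demethylase of tRNA, gave -0.0075, Alkbh4 -0.10 and the tRNA-modifying enzyme gene Alkbh8 -0.020 between the control groups, and each interval included 0.

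Some members varied together between pups of the same group. Among 741 pairs of 39 genes (Kdm6a was left out because its libraries form clusters), 36 correlated after removal of group means at an adjusted permutation p under 0.05, 28 positively and 8 negatively. These pairs involved 21 of the genes, and 18 had no such partner. An r of at least 0.7 was reached by 7 pairs, or 0.945% of them, against 0.295% of all pairs of tested genes. The share of all pairs that passed the permutation rule, positively or negatively, was not counted. Tet1 and Hif1an went together (r = 0.769, rho = 0.740, permutation p = 2e-05 and 5e-05, adjusted p = 0.00212 and 0.00617 over 741 pairs). The r was 0.860 within IS control, 0.985 within ID control, 0.446 within IS insulin and 0.273 within ID insulin, and 0.701 without the 2 libraries farthest from the median. Tet1 also went with Jmjd1c (r = 0.741, rho = 0.703, permutation p = 4e-05 and 8e-05, adjusted p = 0.00296 and 0.00659), with r of 0.573 to 0.829 within groups and 0.644 without the 2 farthest libraries. Tet2 went with Jmjd1c too (r = 0.788, rho = 0.743, permutation p = 1e-05 and 2e-05, adjusted p = 0.00123 and 0.00494). For that pair r was 0.709 without the 2 farthest libraries and 0.691 to 0.934 within the other groups, but -0.036 within ID insulin.

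Egln2 was at the other end of this shared variation. Its log2 CPM ran against Tet1 (r = -0.724, rho = -0.723, permutation p = 1e-05 and 3e-05, adjusted p = 0.00123 and 0.00556 over 741 pairs), and r was negative within each group, between -0.905 and -0.443. It also ran against Jmjd1c (r = -0.661, rho = -0.661, permutation p = 1e-05 and 8e-05, adjusted p = 0.00123 and 0.00659) and Hif1an (r = -0.593, rho = -0.644, permutation p = 0.00057 and 0.0002, adjusted p = 0.018 and 0.0123), with r of -0.902 to -0.458 and -0.891 to -0.336 within groups. Without the 2 libraries farthest from the median r was -0.651, -0.564 and -0.501 in the same order. Jmjd1c in turn followed the mean of the hippocampal neuron list (r = 0.635, rho = 0.609, permutation p = 1e-05 and 0.00011, adjusted p = 0.00214 and 0.0236 over 429 relations), and r was 0.682 without the 2 farthest libraries and 0.247 to 0.902 within groups. Kdm4a and Kdm2a followed the same list by Pearson's r (0.720 and 0.652, adjusted permutation p = 0.0193 and 0.042) but not by Spearman's rho (0.627 and 0.535, adjusted permutation p = 0.0515 and 0.126), and within IS control r was 0.029 for Kdm2a. Kdm8 followed the mitochondrial share of counts (r = 0.607, rho = 0.605, adjusted permutation p = 0.0193 and 0.0547), with r between 0.102 and 0.910 within groups. The 0.910 is within ID control, where the mitochondrial share was 7.47% to 8.41% under title number 69 and 8.58% to 9.30% under 70, and Kdm8 also separated by title number. The part of tissue makeup in the correlations between members was not tested.

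**Figure D5:**
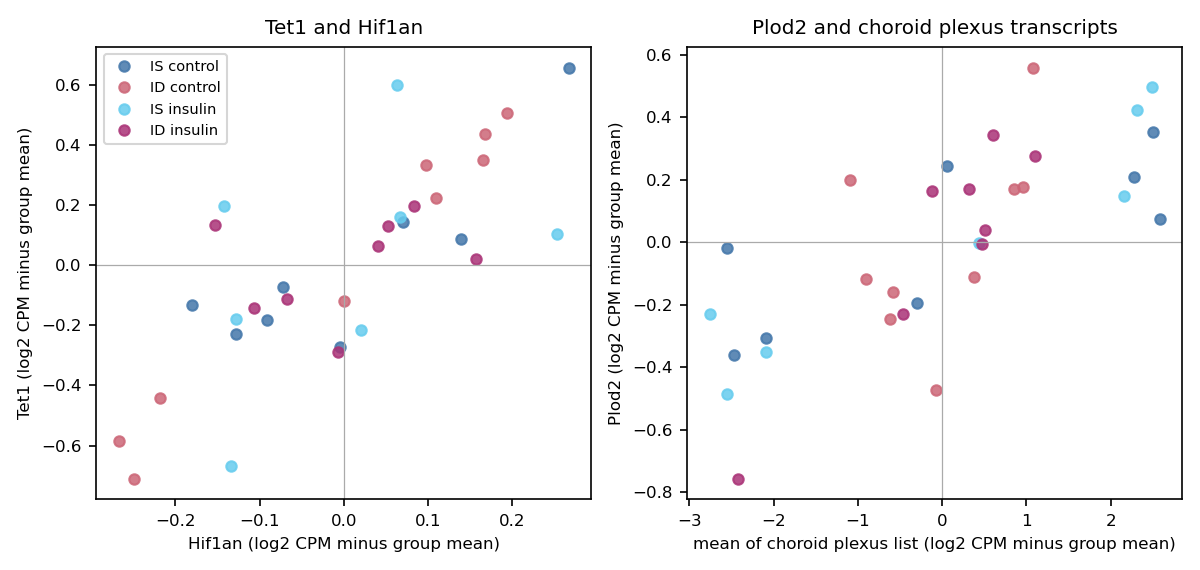
Tet1 against Hif1an (left) and Plod2 against the mean of the choroid plexus list (right), as log2 CPM minus the group mean, with 1 point per library coloured by group. Points rise together in both panels (r = 0.769 and 0.752), and on the left 3 ID control points sit apart at the lower left.

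Of 24 other tested genes of 2-oxoglutarate oxygenases, 0 were called between ID control and IS control, 1 fell in ID insulin against IS insulin, 1 rose and 1 fell in ID insulin against ID control, and 0 were called in IS insulin against IS control. Of all genes 0.291%, 2.45%, 3.82% and 0.123% were called in these comparisons. The medians of the 24 were 0.015, 0.0062, -0.0068 and 0.036, against 0.0051, -0.0006, 0.0039 and 0.011 over all genes. Tmlhe, which starts carnitine synthesis, had 6.77 ± 0.965 CPM in IS insulin and 4.90 ± 0.702 CPM in ID insulin (SD, n = 7 and 8; log2 fold change -0.45, SE 0.12, adjusted p = 0.0383), and fell with diet averaged over treatments (log2 fold change -0.31, SE 0.084, adjusted p = 0.0466). Bbox1, which ends carnitine synthesis, went the other way in ID insulin, with 1.15 ± 0.468 CPM in ID control and 2.30 ± 0.937 CPM in ID insulin (SD, n = 9 and 8; log2 fold change 0.98, SE 0.26, adjusted p = 0.0303). Phyh, the peroxisomal phytanoyl-CoA hydroxylase gene, fell there (log2 fold change -0.19, SE 0.054, adjusted p = 0.0392). Against IS control, ID insulin had higher Bbox1 (log2 fold change 1.12, SE 0.27, adjusted p = 0.0202) and P3h3, a collagen prolyl 3-hydroxylase family gene (log2 fold change 0.55, SE 0.14, adjusted p = 0.0309), and lower Asphd2 (log2 fold change -0.24, SE 0.067, adjusted p = 0.0446).

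Genes that supply or consume 2-oxoglutarate, and those for ascorbate uptake and iron delivery to the enzymes, gave 1 called gene. Of 18 tested genes 0 were called between ID control and IS control (median log2 fold change 0.048, against 0.0051 over all genes). Idh1, which makes 2-oxoglutarate in the cytosol, rose from 91.1 ± 8.13 CPM in ID control to 113 ± 11.3 CPM in ID insulin (SD, n = 9 and 8; log2 fold change 0.31, SE 0.082, adjusted p = 0.0321). It was also higher in ID insulin than in IS control (log2 fold change 0.29, SE 0.085, adjusted p = 0.0496). Of all genes 3.82% and 3.35% were called in these comparisons. Blood markers were higher in ID insulin too, with 4 of 7 called against ID control (median log2 fold change 1.09) and sums of 1261 to 5507 CPM against 1364 to 3207 CPM, and their part in the ID insulin differences of these lists was not tested.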

How the data were processed

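The authors deposited raw read counts per gene for 32 libraries. Per the submitters' processing notes, Trimmomatic (version 0.40), FastQC, HISAT2 (version 2.1.0), featureCounts and edgeR were named, with the builds Rnor_6.0 and mm10 and no roles, and the strand setting and the handling of reads that fit several places are not given in the sources used here. Near-identical copies and overlapping genes are therefore uncertain. Of 32883 genes 9663 had no count, no columns belonged to other samples, and totals were 19619345 to 28062630. No 2 libraries of a group were copies (lowest chi-square 5.77 per gene).

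The deposited counts went into edgeR (version 4.0.16, under R version 4.3.3), with TMM, filterByExpr (15439 genes kept), and the two-sided quasi-likelihood F-test with 1 coefficient per group over 32 libraries (28 residual degrees of freedom). A separate model of the 9 ID control libraries (15008 genes) compared their title numbers. P-values were adjusted by Benjamini-Hochberg over all genes, and an adjusted p under 0.05 was called. Intervals are 95% t intervals on the log2 scale. DESeq2 (version 1.42.0) and limma voom (version 3.58.1, quality weights) were alternatives, beside other scalings, filters, covariates and left-out libraries. Scripts were tested on simulated data.

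Correlations used log2 CPM (prior count 2) minus group means, with 100000 permutations within groups. Promoters came from RefSeq (GRCr8), an assembly other than the builds named for the counts. For every comparison the 3 members with the lowest p are given in full. The members, lists and alternatives were chosen with earlier results of these data known. Same-numbered pups of different groups did not deviate together (mean r 0.012 over 40 pairs, -0.195 to 0.25).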

Additional observations from a re-analysis of the deposited data

Results flagged for a closer look

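In 9 of the 160 member and group combinations, 1 library lay farther from its group than Dixon's criterion allows, or 5.62%, where chance flags about 1 in 20. Tet1 and Tet3 were both highest in IS control replicate 5, at 19.25 CPM (next highest 13.5) and 45.79 CPM (next highest 36.3). Kdm3b reached 77.63 CPM in ID insulin replicate 6 and Jmjd6 13.03 CPM in ID insulin replicate 2, where the next pups had 70.9 and 11 CPM. Egln1 was at 28.81 CPM in ID insulin replicate 3, the library in which Kdm7a was also lowest, and the next highest pup had 24.5 CPM. Jmjd1c was at 122.9 CPM in IS insulin replicate 7 (next highest 113), and Fto at 135.1 CPM in IS insulin replicate 1 (next lowest 155). In ID control, Alkbh5 was at 54.3 CPM in replicate 1 (next highest 49.7) and Alkbh8 at 4.972 CPM in replicate 5 (next lowest 7.38).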

How the results depend on the processing

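Calls of members depended on the tool and on single pups. Of the 21 differences given in full outside the title number comparison, 249 values under other settings included 226 on the same side of the threshold, 22 that passed it and 1 of opposite sign: Plod2 in ID control against IS control, at -0.013 with tissue lists as covariates. No member was called in ID control against IS control, or between title numbers, under any setting run. Against 0 in edgeR, DESeq2 called 4 members in ID insulin against IS insulin, 2 for diet averaged over treatments, 1 in IS insulin against IS control and 2 for the interaction, and limma voom called 3, 2, 0 and 2, and 1 in ID insulin against ID control. A filter of 1 CPM in 7 libraries gave 2 in ID insulin against IS insulin (Kdm6b and Hif1an). The shares of all genes called are not given for this filter or for the left-out libraries, title number subsets and covariates below. Those member counts therefore cannot be set against a background.

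Diet averaged over treatments had 1 called member with ID control title number 69 alone (Plod2), with 70 alone (Kdm6b), without ID insulin replicates 3 and 5 (Kdm6b, also 1 in ID insulin against IS insulin), and with Kdm5d as a covariate (Kdm6b), the last chosen after seeing the data, as was the earlier edgeR quasi-likelihood method, which called 0. ID insulin against ID control had 1 with title number 69 alone (Alkbh3). The title's pup number as a replicate block gave 1 there (Kdm6a) and changed no other count, but the numbers do not pair the samples. Pup number also followed Kdm5d outside ID control, with high Kdm5d at numbers 6 to 10 and low Kdm5d at 1 to 5, so the block takes up the split seen in Kdm6a.

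Leaving out 1 library at a time changed 30 of 672 values. Counts of called members then ranged from 0 to 4 in ID insulin against IS insulin, 0 to 1 for diet averaged over treatments, 0 to 1 in IS insulin against IS control, 0 to 1 in ID insulin against IS control and 0 to 2 for the interaction, and stayed at 0 in the others. Without ID insulin replicate 3 there were 4 (Tet1, Tet3, Kdm6b and Hif1an) in ID insulin against IS insulin. Calls there also followed from leaving out ID control replicate 1, 4 or 5, IS control replicate 5, IS insulin replicate 5 or 7, or ID insulin replicate 7. For diet, they followed from leaving out ID control replicate 5 or 7, IS control replicate 2, 3 or 5, IS insulin replicate 1, 2 or 5, or ID insulin replicate 3 or 7. For the interaction these were ID control replicate 1, IS insulin replicate 7 and ID insulin replicate 3. Hif1an in IS insulin against IS control passed without ID insulin replicate 3, and Plod2 in ID insulin against IS control without ID insulin replicate 7. Depth limited P4ha3 most, with 15 to 81 counts per library.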

Other observations

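The enzymes that add the methyl groups, and the demethylases that use flavin instead of iron, were also examined. Of 21 tested genes for DNA, histone and RNA methyltransferase components, 0 were called between ID control and IS control (median log2 fold change -0.016, against 0.0051 over all genes). Ezh1, a Polycomb methyltransferase gene, fell from 81 ± 4.84 CPM in ID control to 70.1 ± 6.93 CPM in ID insulin (SD, n = 9 and 8; log2 fold change -0.21, SE 0.049, adjusted p = 0.0144). Dnmt3a, the de novo DNA methyltransferase gene, was called for the interaction of diet and insulin (log2 fold change 0.53, SE 0.14, adjusted p = 0.0499), with 74.1 ± 10.7 CPM in IS control, 64.5 ± 10.9 CPM in ID control, 59.4 ± 8.34 CPM in IS insulin and 74.6 ± 8.42 CPM in ID insulin. The order of its group means, with IS control and ID insulin above ID control and IS insulin, was that of Tet3. Ezh1 and Dnmt3a were each the 1 of 21 called in their comparison, where 3.82% and 0.939% of all genes were called. Between ID control and IS control 0.291% of all genes were called. The flavin-dependent demethylase genes Kdm1a and Kdm1b gave 0.030 and 0.018 between ID control and IS control (adjusted p = 0.860 and 0.941), and 0 of the 2 were called in any of the 8 comparisons in edgeR, with an unadjusted p under 0.05 only for Kdm1b in IS insulin against IS control (0.13, unadjusted p = 0.0412).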
